A study of Homo sapiens with 4 samples.

Results

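The distal p63 peaks described here lay over 100 kb from every protein-coding gene, in the long stretches called gene deserts. They were taken from the peak list of p63 immunoprecipitate (IP) replicate 1, read in GRCh38 numbering on chromosomes 1 to 22 and X. A peak was kept when its summit lay more than 100000 bp from every RefSeq protein-coding gene span and outside the widest gene-free interval of its chromosome. These intervals are mostly centromeric. The rule gave 633 of the 3965 peaks on these chromosomes (16.0%), while 1646 summits lay inside genes, 1078 lay between genes within 100 kb of one, and 608 lay in the widest intervals.

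The study mapped p63 by ChIP-seq, in which crosslinked chromatin is precipitated with an antibody and sequenced, in HSC-5 cells, a human skin squamous carcinoma line kept in DMEM with fetal bovine serum. All 4 samples came from this line crosslinked with 1% formaldehyde for 12 min: 2 input libraries and 2 IPs with the D9L7L antibody to p63. There was no second condition, and nothing says whether the replicates came from separate cultures. The members come from replicate 1 alone, which kept 12687447 IP tags after removal of duplicates, while replicate 2 kept 868393 and is numbered on another build, so all comparisons below are descriptions within 1 library and carry no p-value.

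p63 belongs to the p53 family of transcription factors and keeps the basal cells of stratified epithelia such as the epidermis in a proliferative, committed state. It binds a response element made of a pair of abutting decamers, each with a central C, an A or T pair and a G, flanked by purines before and pyrimidines after. Gene deserts often border genes of development, and many hold enhancers, stretches of regulatory DNA that act on a promoter at a distance. A peak in a desert does not show which gene, if any, it regulates.

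The sequences below are shown because they are the distal peaks whose summit falls in an annotated promoter: 4 members lay in the promoter of a long non-coding RNA (lncRNA), and 3 of these promoters hold a p53-family element next to the summit. The RefSeq promoters (GRCh38.p14) run from 250 bases before to 50 after the start site and are written 5′ to 3′ on the strand of the gene, with the best element in capitals. LOC105373768 is at chr2:180222616-180222915 on the plus strand, LOC105375451 at chr7:110534668-110534967 on the minus strand, LOC105376398 at chr10:8594342-8594641 on the minus strand, and LINC02160 at chr5:33229485-33229784 on the plus strand.
LOC105373768: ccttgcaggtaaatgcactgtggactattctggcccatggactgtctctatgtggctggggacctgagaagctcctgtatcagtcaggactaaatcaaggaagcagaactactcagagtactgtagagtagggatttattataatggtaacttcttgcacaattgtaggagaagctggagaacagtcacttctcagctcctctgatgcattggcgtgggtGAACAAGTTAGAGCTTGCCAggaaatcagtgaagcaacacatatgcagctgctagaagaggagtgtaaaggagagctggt
LOC105375451: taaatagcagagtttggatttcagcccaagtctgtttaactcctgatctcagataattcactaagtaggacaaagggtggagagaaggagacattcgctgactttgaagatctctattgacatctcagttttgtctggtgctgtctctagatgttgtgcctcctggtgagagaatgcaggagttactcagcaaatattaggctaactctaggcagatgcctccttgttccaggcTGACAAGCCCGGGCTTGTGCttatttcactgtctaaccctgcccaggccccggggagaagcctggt
LOC105376398: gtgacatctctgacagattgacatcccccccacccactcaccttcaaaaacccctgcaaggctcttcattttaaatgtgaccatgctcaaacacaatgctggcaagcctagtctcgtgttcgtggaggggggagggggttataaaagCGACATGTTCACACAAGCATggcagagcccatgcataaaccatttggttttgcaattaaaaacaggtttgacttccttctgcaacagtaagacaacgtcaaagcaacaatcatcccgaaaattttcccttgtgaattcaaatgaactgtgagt
LINC02160: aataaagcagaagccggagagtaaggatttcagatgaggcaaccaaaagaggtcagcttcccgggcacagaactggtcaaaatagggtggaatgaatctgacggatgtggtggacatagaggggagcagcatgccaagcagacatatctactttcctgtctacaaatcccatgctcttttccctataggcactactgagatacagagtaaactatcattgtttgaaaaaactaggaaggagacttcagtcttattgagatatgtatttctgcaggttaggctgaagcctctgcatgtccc

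In LOC105373768 the element had 2 mismatches to the 20-base pattern and its centre lay 7.5 bp from the summit, and the peak held 22 tags (exact Poisson 95% interval 13.8 to 33.3) at a fold of 23.34 over control. In LOC105375451 the element also had 2 mismatches and was centred 7.5 bp from a summit that itself was 1 bp from the start site, with 23 tags (14.6 to 34.5) and a fold of 29.17. In LOC105376398, which lies in the desert between GATA3 and CELF2, the element had 3 mismatches and was centred 7.5 bp from the summit, with 9 tags (4.12 to 17.1) and a fold of 16.02. The window of LINC02160, with 8 tags and a fold of 11.92, had no 20-base stretch with all 4 core letters in place. All 3 elements were thus centred at the same distance from the summit, though not on the same side. Along the strand of the gene, the summit came after the centre in LOC105373768 and LOC105375451 and before it in LOC105376398. The pair with fewest mismatches belonged to the peaks with over 20 tags.

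Among all 34992 promoters searched, with a pattern that reads the same on both strands, 0.286% held the element at 2 mismatches or fewer and 1.12% at 3 or fewer. Over the 55 other promoters that held a summit of replicate 1, near genes or not, the shares were 25.5% and 43.6%. The pattern and its core rule were chosen after these 4 promoters were seen. A match is a description of letters and no evidence of binding by itself.

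One block of members stands apart and is separated before the other results. On chromosome 21 the widest gene-free interval was the leading one, so 44 members on the same chromosome remained in gene-free intervals that end before 14 Mb, around and before the centromere. Of these, 20 lay in an interval with 12 ribosomal RNA gene entries (RNA45SN1, RNA18SN1 and their copies, which encode the RNA core of the ribosome), and 10 summits fell inside such a gene. These 20 peaks held 45 to 1149 tags at a median fold of 3.815 and spanned 424 to 6094 bp. The highest 5 by tags among all members were here, with 1149, 946, 745, 437 and 265 tags and folds from 2.56 to 3.83. A further 23 peaks between TPTE and POTED held 8 to 52 tags at a median fold of 11.92, and 1 peak with 8 tags lay between the pair of intervals.

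The block held 46.9% of all tags in members. Of its peaks, 13 had over 100 tags and 12 were 1 kb or wider, while none of the 589 other members had either. Ribosomal RNA genes exist in many near-identical copies, so tags there cannot be assigned to a copy, and the part that repeats play in these peaks was not tested. The values below are for the 589 other members unless stated.

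**Figure D1:**
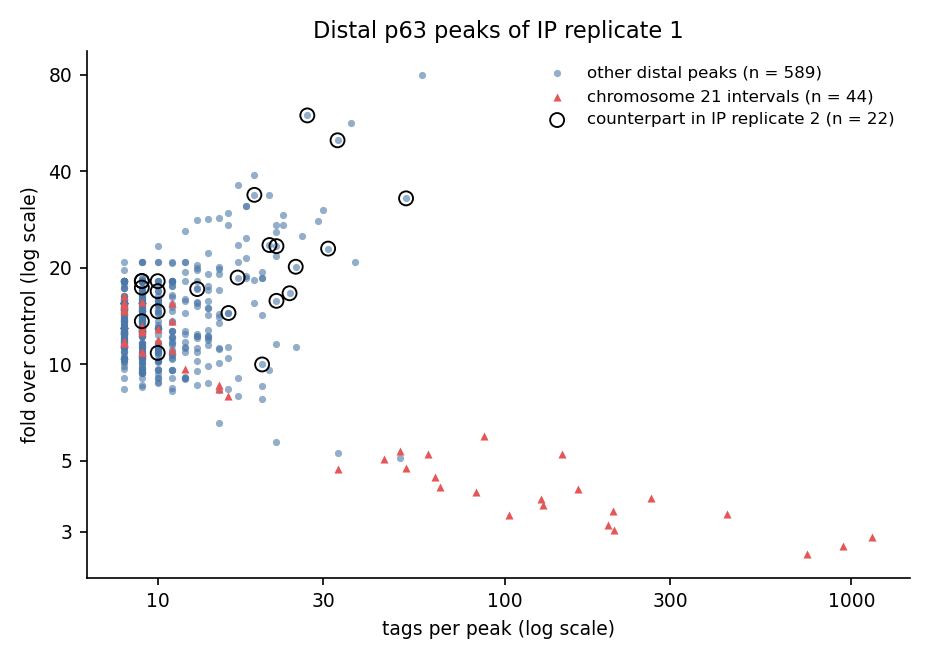
Tags per peak (x axis, log scale) and fold over control (y axis, log scale) of each of the 633 distal peaks in replicate 1, with the 44 of the chromosome 21 intervals as triangles and rings around the 22 matched to a peak in replicate 2. Peaks with over 100 tags are all triangles at folds under 10, while the other peaks reach 58 tags and a fold of 79.96.

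Distal peaks were mostly weak. Their median was 9 tags (interquartile range 8 to 11), a fold of 13.61 and a width of 237 bp, against 10 tags, 14.61 and 243 bp inside genes and 10 tags, 14.72 and 243 bp between genes within 100 kb of one. Of the distal peaks, 36.2% (213, Wilson 95% interval 32.4 to 40.1) held 8 tags, the fewest in the list, against 28.8% (26.7 to 31.0) inside genes and 27.3% (24.7 to 30.0) between genes near one. Over 20 tags were held by 4.58% (27, 3.17 to 6.59), against 9.84% and 11.5% in those classes.

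A score, which is 10 times the negative log10 of the caller's p-value, of 100 or more was reached by 47 distal peaks (7.98%, 6.05 to 10.5). Over all 3965 peaks the share was 15.4%, with 17.7% (15.9 to 19.6) inside genes and 17.3% (15.2 to 19.7) between genes near one. The intervals of the distal share and of these shares do not overlap. With the chromosome 21 intervals the share was 7.9% (50 of 633).

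Peaks were also sparser in deserts. The 589 members fell in 748 Mb of sequence open to them under the rule, or 0.788 per Mb (exact Poisson 0.725 to 0.854), against 1.31 per Mb (1.25 to 1.37) inside genes and 1.33 (1.25 to 1.41) between genes near one. Assembly gaps and repeats were not taken out of these lengths, and the part they play in the densities was not tested. With the chromosome 21 intervals the value was 0.839 per Mb (0.775 to 0.906).

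Within the deserts, density was lower farther from the nearest gene. Between 100 and 200 kb there were 252 peaks at 1.1 per Mb (0.967 to 1.24), and between 200 and 300 kb there were 113 at 0.829 (0.683 to 0.998). Between 300 and 500 kb there were 108 at 0.666 (0.546 to 0.802), between 500 and 1000 kb there were 90 at 0.546 (0.439 to 0.673), and beyond 1000 kb there were 26 at 0.474 (0.31 to 0.694). The intervals of neighbouring classes overlap, and those of the first and the last do not.

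Some chromosomes with few distal peaks, such as 4 and X, have much desert sequence, so the counts were also set against those given by each chromosome's own distal density. The ratio of observed to expected went from 1.36 (1.19 to 1.53) at 100 to 200 kb through 1.02, 0.82 and 0.708 to 0.771 (0.504 to 1.13) beyond 1000 kb. The last class was the least certain. Without the gene-free interval of chromosome 2 that spans its centromere, it held 20 peaks at 0.37 per Mb (0.225 to 0.571). Its ratio was then 0.605 (0.369 to 0.935), with the density of chromosome 2 still computed with that interval.

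The strongest peaks were nearest to genes as well. A score of 100 or more was reached by 30 of 252 peaks (11.9%, 8.47 to 16.5) at 100 to 200 kb, 11 of 113 (9.73%) at 200 to 300 kb, 5 of 108 (4.63%) at 300 to 500 kb, and 1 of 90 (1.11%, 0.196 to 6.03) at 500 to 1000 kb. Beyond 1000 kb it was 0 of 26, an interval of up to 12.9%. The median number of tags was 8 or 9 in all 5 classes, at or next to the fewest in the list, so it can show little difference. The median fold was 13.61, 14.62, 12.98, 12.98 and 15.535 from the nearest class to the farthest.

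**Figure D2:**
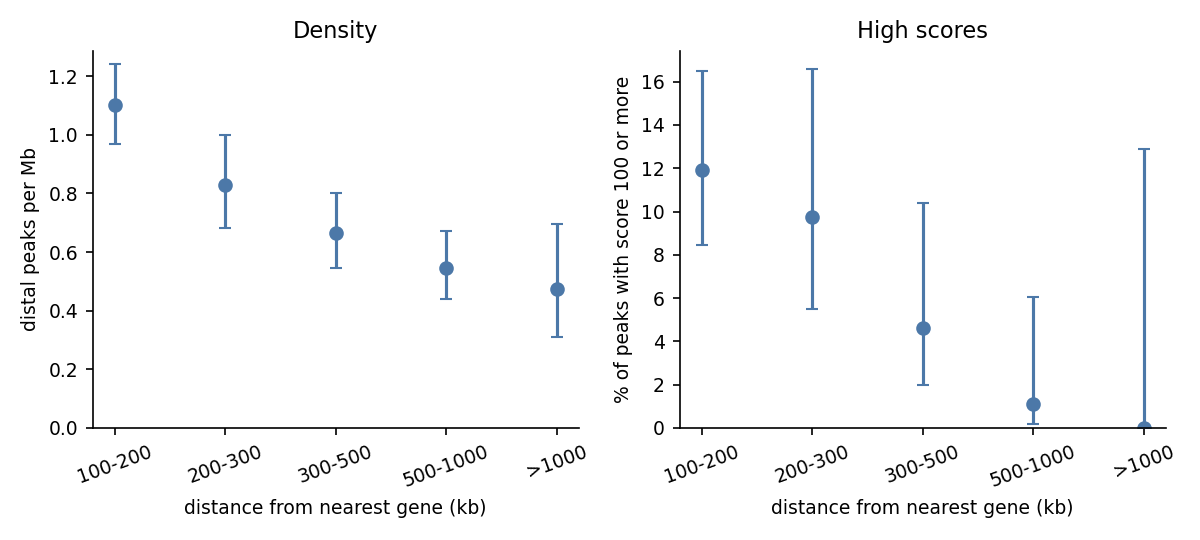
Distal peaks per Mb (left, points with exact Poisson 95% intervals) and percent with a score of 100 or more (right, points with Wilson 95% intervals) by distance from the nearest protein-coding gene in kb, for the 589 members outside the chromosome 21 intervals. Density goes from 1.1 to 0.474 per Mb and the share of high scores from 11.9% to 0%.

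The 3 members just inside lay 100.324 kb (near IER5L, 22 tags, fold 15.76), 100.406 kb (between RFC3 and NBEA, 8 tags, 12.98) and 100.449 kb (near DKK1, 10 tags, 11.23) from a gene. The 3 peaks just outside lay at 99.786 kb (between ITGB1 and NRP1, 9 tags, 12.57), 99.588 kb (between AVL9 and KBTBD2, 9 tags, 11.07) and 99.523 kb (between DNAJB9 and IMMP2L, 11 tags, 18.85).

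Chromosomes differed widely. Chromosome 9 had 59 distal peaks at 1.65 per Mb (1.26 to 2.13), chromosome 8 had 67 at 1.56, chromosome 20 had 16 at 1.32 and chromosome 5 had 78 at 1.29 (1.02 to 1.61). At the low end, chromosome X had 10 at 0.207 (0.0995 to 0.382), chromosome 4 had 12 at 0.174 (0.0899 to 0.305) and chromosome 18 had 1 at 0.0391 (0.00099 to 0.218). Chromosomes 19 and 22 had none, over 1.46 and 5.06 Mb of eligible sequence, which allows up to 2.53 and 0.729 per Mb. The density of chromosome 4 includes 2 members between CWH43 and DCUN1D4, around its centromere, since that interval was not the widest there. That of chromosome 9 includes deserts close to its left-out widest interval, such as SPATA31A6 to LOC112268044 and CNTNAP3C to LOC107987020, with 1 member each. The part of such sequence in these densities was not tested.

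The same chromosomes were rich or poor in peaks near genes. Across the 23 chromosomes, distal peaks per Mb and the other peaks per Mb gave Spearman's rho 0.733 and Pearson's r 0.775, as a description of points that share 1 library and its depth. Chromosome arms also differed within a chromosome. On chromosome 3, 5 distal peaks lay before the widest interval (0.217 per Mb, 0.0704 to 0.509) and 47 after it (1.56, 1.15 to 2.08). On chromosome 6 the order was the other way, with 1.48 per Mb before (0.88 to 2.34) and 0.396 after (0.216 to 0.664). On chromosome 9 the values were 0.767 (0.383 to 1.37) and 2.25 (1.66 to 2.98), and on chromosome 5 they were 1.31 and 1.29.

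**Figure D3:**
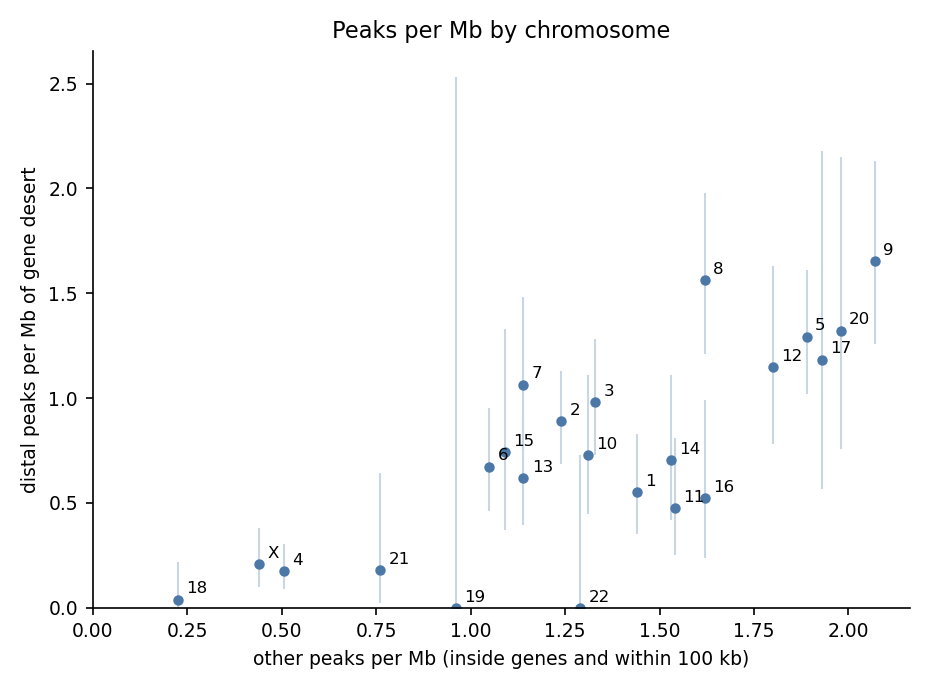
Distal peaks per Mb of gene desert (y axis, exact Poisson 95% intervals, chromosome 21 intervals left out) against the peaks inside genes or within 100 kb of one per Mb of that sequence (x axis) for each of 23 chromosomes. Chromosomes 18, 4 and X are low on both axes and chromosome 9 is high on both.

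The members with the highest folds lay at named places. The highest, at chr2:111640548-111640831, held 58 tags (44.0 to 75.0) at a fold of 79.96 and lay 125.538 kb from ANAPC1, a subunit of the complex that marks mitotic proteins for destruction. The authors' deposited table carries the note H3K27Ac, a mark of active enhancers, beside it. In all, 48 of the 589 members had a fold of 20 or more and 9 had 30 or more tags. Shares of the other classes at these cut-offs were not taken. Over 20 tags were held by 4.58% of the 589, against 9.84% inside genes, 11.5% between genes near one and 16.1% over all 3965 peaks.

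Next came a peak in LINC02099 between DUSP4 and SARAF on chromosome 8 with 27 tags (17.8 to 39.3) and a fold of 59.69, which the authors' deposited table also notes by that name. The peak at chr2:37786991-37787266, in LOC107985869 and 114.146 kb from CDC42EP3, an effector of the cytoskeletal switch CDC42, had 36 tags (25.2 to 49.8) and a fold of 56.55. The peak at chr6:12506225-12506661, midway between EDN1 and PHACTR1, had 33 tags (22.7 to 46.3) and a fold of 49.92. EDN1 encodes endothelin 1, a peptide that constricts vessels and patterns the lower jaw.

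The other 6 of the 10 highest had folds of 31.14 to 38.93. They lay at chr9:62932801-62933066 (19 tags), at chr20:6654828-6655066 between FERMT1 and BMP2 (17 tags, fold 36.33), between ZMAT4 and SFRP1 on chromosome 8 (19 tags, fold 33.74), at chr4:101650021-101650415 between PPP3CA and BANK1 (21 tags), at chr20:50371989-50372440 between CEBPB and PTPN1 (52 tags) and at chr6:44685224-44685581 between CDC5L and SUPT3H (18 tags). BMP2 is a ligand of bone and skin patterning, SFRP1 a secreted antagonist of Wnt ligands, and CEBPB a factor of keratinocyte differentiation.

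A few peaks had many tags at a low fold outside chromosome 21 too. Near ISL1, a factor of heart and motor neuron progenitors, the peak at chr5:51583548-51584427 held 50 tags at a fold of 5.11 over 880 bp. Near FST, which encodes the activin antagonist follistatin, the peak at chr5:53362104-53362972 held 33 tags at a fold of 5.29. These were named after their values were seen. Of the 589 members, 52 had a fold under 10, against 26 of the 44 in the chromosome 21 intervals. A fold of 10 or more was reached by 91.2% of the 589, close to 92.1% inside genes and 90.6% between genes near one. Over all 3965 peaks it was 81.6%.

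The genes next to the peaks were compared with 3 lists of developmental genes: epidermal and craniofacial transcription factors, other developmental transcription factors, and signalling ligands, receptors and antagonists. These lists, written by hand, were chosen with earlier results of these data known. A listed gene was the nearest on one side or the other of 125 of 589 members (21.2%, 18.1 to 24.7). The share was 8.35% (90 of 1078, 6.84 to 10.2) for peaks between genes within 100 kb of one. Of the 1623 deserts that could have held a member, 260 (16.0%) border a listed gene. Counting all 633 members, the share was 19.7%.

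The direction of this comparison depends on how a gene is assigned. With the nearest gene alone the shares were 12.9% (10.4 to 15.9) and 4.36% (3.29 to 5.75). With any listed gene within 1 Mb they were 26.7% (23.2 to 30.4) and 30.1% (27.4 to 32.9), so the order turned. Sequence near genes has more genes within reach, and this part was not tested.

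Against the deserts themselves the difference was smaller. Of the 379 deserts with a member, 76 (20.1%, 16.3 to 24.4) border a listed gene, against 184 of 1244 (14.8%, 12.9 to 16.9) without. By length the shares were 17.0% and 12.7% under 500 kb, 27.6% and 20.6% from 500 kb to 1 Mb, and 16.0% and 16.9% over 1 Mb, with overlapping intervals in each length class. Deserts with a member were longer, with a median of 800 kb against 345 kb.

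Per Mb, deserts that border a listed gene held 1.01 members (125 over 124 Mb, 0.84 to 1.2) and the others 0.743 (464 over 624 Mb, 0.678 to 0.814), intervals that do not overlap. The values were 1.53 and 1.21 under 500 kb, 1.16 and 0.863 from 500 kb to 1 Mb, and 0.801 (0.6 to 1.05) and 0.594 (0.52 to 0.676) over 1 Mb, higher in the developmental class each time but with overlapping intervals. Set against each chromosome's own density, the ratio of observed to expected members was 1.22 (1.02 to 1.46) for developmental and 0.953 (0.869 to 1.04) for the other deserts.

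**Figure D4:**
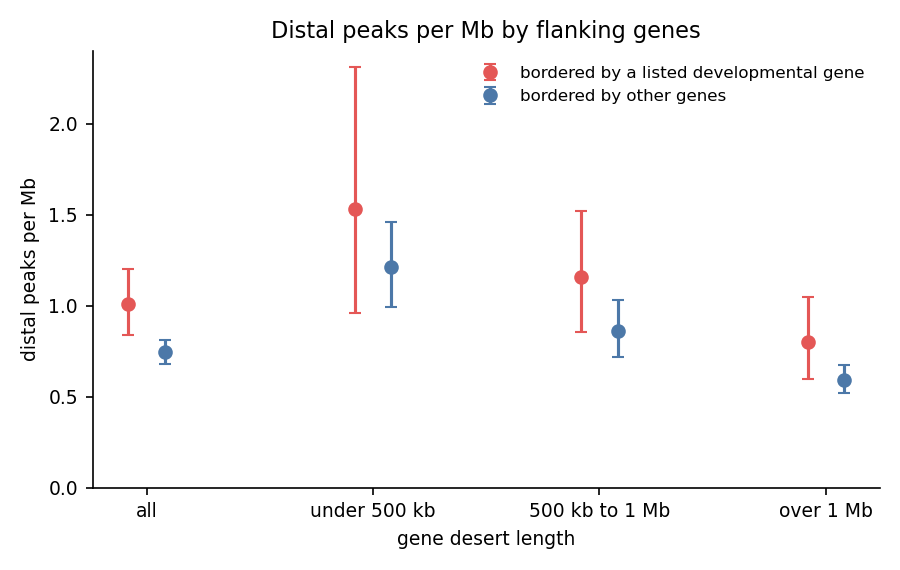
Distal peaks per Mb of eligible desert sequence (y axis, points with exact Poisson 95% intervals) by desert length (x axis) for deserts that border a listed developmental gene and for the others. Over all lengths the values are 1.01 and 0.743 per Mb, and within each length class the intervals overlap.

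Among the epidermal and craniofacial transcription factors, 58 of 93 border a desert and 26 of those (44.8%) flank a distal peak, against 714 of all 2768 protein-coding genes that border one (25.8%). Together they flanked 61 members (10.4%), against 2.5% of intergenic peaks near genes. The part of desert length in a count per gene was not tested.

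KLF4, a factor of late keratinocyte differentiation and barrier formation, had 6 members on its side facing ACTL7B, 615.405 to 1053.912 kb away. They held 15, 11, 12, 9, 11 and 10 tags in order of distance, at folds of 8.42 to 16.23. None was strong, and their density over that desert was 5.15 per Mb.

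SOX2, a factor of progenitors and of squamous carcinomas, was flanked by 5 members. The one before it, towards DNAJC19, held 9 tags. The 4 after it, towards ATP11B, held 20, 31, 10 and 8 tags at 259.978, 338.079, 349.484 and 661.871 kb. The peak with 31 tags (21.1 to 44.0), at chr3:182052284-182052643, had a fold of 22.93 and a counterpart in replicate 2.

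MSX2, a homeobox factor of skull and tooth development, had 4. Before it lay peaks of 13, 14 and 10 tags at 395.713, 299.077 and 173.214 kb, the first with a fold of 28.26 (13 tags, interval 6.92 to 22.2). After it lay a peak of 8 tags at 518.672 kb. SOX9, of cartilage and hair follicle stem cells, had 4 peaks of 8 to 12 tags from 290.133 to 1454.989 kb away. GATA3, of epidermal barrier and hair follicle lineages, had 4 of 8 or 9 tags towards CELF2, from 360.171 to 1395.304 kb, among them the LOC105376398 promoter. These genes were named after their counts were seen.

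Other listed factors had fewer or single peaks. The peak with 52 tags (38.8 to 68.2) lay 179.567 kb from CEBPB, and a peak of 12 tags and a fold of 25.95 lay 127.447 kb from TWIST2, a factor of dermal and facial mesenchyme. TFAP2C, an activator of early surface ectoderm genes, shares a desert with BMP7, a ligand of epithelial development, and the 3 peaks between them held 13, 9 and 14 tags at folds of 10.47 to 12.74. KLF5, of proliferating basal keratinocytes, had 14 and 8 tags in the desert towards KLF12.

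**Figure D5:**
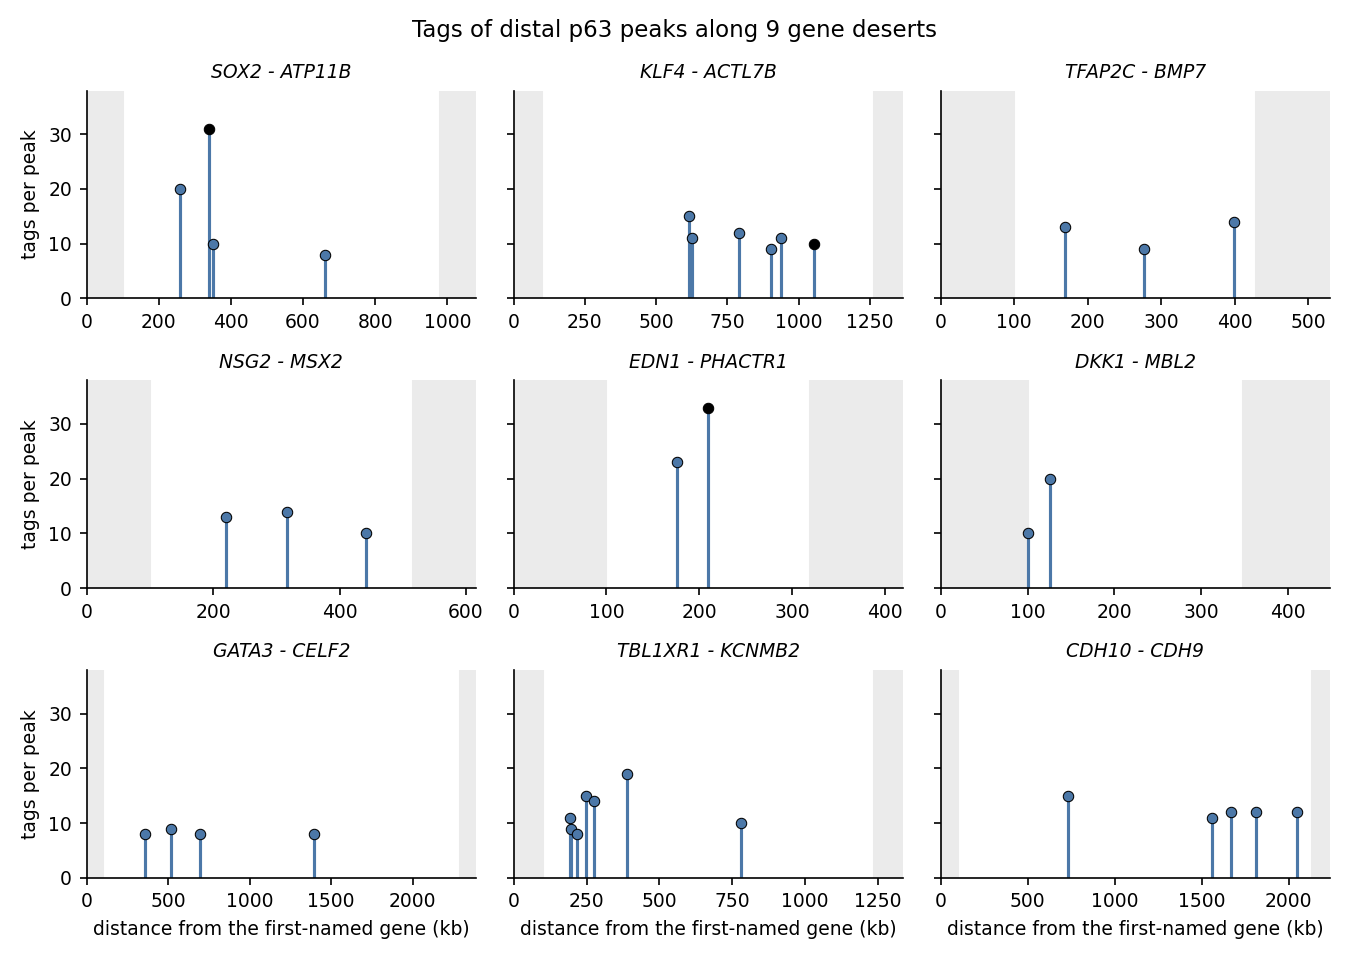
Tags per peak (y axis) of each distal peak by its distance in kb from the first-named gene (x axis) in 9 gene deserts, with grey bands over the 100 kb next to each gene, where no member can lie, and black points for peaks with a counterpart in replicate 2. Peaks between KLF4 and ACTL7B stay at 15 tags or fewer, while SOX2 and EDN1 each have a peak above 30. The match between KLF4 and ACTL7B has an offset unlike those of matches on either side of it. Whether it is false was not tested.

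Of the other developmental transcription factors, 97 of 176 border a desert and 29 (29.9%) flank a member, close to the 25.8% of all genes. They flanked 37 members (6.28%, 4.59 to 8.54, against 3.62% near genes). The highest fold was 28.55, at chr13:111938138-111938373 (15 tags, 8.4 to 24.7), 128.937 kb from SOX1, a factor of neural progenitors. A fold of 18.17 came next and was shared by several peaks of 8 to 11 tags, among them those near NR5A2 (9 tags) and ZNF703 (9 tags). NR5A2 is a nuclear receptor of liver and pancreas and ZNF703 a repressor studied in breast cancer.

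Of the signalling genes, 64 of 145 border a desert and 22 (34.4%) flank a member. They flanked 35 members (5.94%, 4.3 to 8.15, against 2.5% near genes). EDN1 had a pair, with 23 tags (fold 27.23) and 33 tags (fold 49.92) 33.6 kb apart. DKK1, a secreted Wnt antagonist, had 10 and 20 tags, and ERBB4, a receptor of the epidermal growth factor receptor family, had 9 and 22 tags, the latter at a fold of 27.23. SHH, the hedgehog ligand of limb and hair follicle patterning, had 8 and 11 tags, and KITLG, the ligand that keeps melanocytes alive, had 8 and 14.

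The basal keratinocyte adhesion genes, which encode the integrins, laminins and linked proteins that hold basal cells to their matrix, are another list: 13 of 42 border a desert and 2 of those (15.4%, FERMT1 and TNS3) flank a distal peak, against 25.8% of all bordering genes. Such a flank was found for 3 members (0.509%, 0.173 to 1.49), against 0.835% (0.44 to 1.58) near genes, with overlapping intervals. FERMT1, the kindlin of keratinocytes, is across the desert from BMP2. TNS3, a tensin, faces IGFBP3, with peaks of 11 and 8 tags between them.

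Most members had no other member within 50 kb. Another member was within 50 kb for 81 of 589 (13.8%, 11.2 to 16.8), in 37 groups of which 5 had 3 or more. Over all 3357 peaks outside the widest intervals, 20.5% had another peak within 50 kb, and counting only peaks of the same class the share was 18.0% (16.2 to 19.9) inside genes and 16.2% (14.2 to 18.6) between genes near one. With the chromosome 21 intervals, where 28 of 44 had a neighbour, the distal share was 17.2%. Within 10 kb the share was 5.09% (3.59 to 7.18) of the 589, against 4.8% (3.87 to 5.94) inside genes and 5.66% (4.43 to 7.2) near them, with overlapping intervals. Members were sparser, at 0.788 per Mb against 1.31 and 1.33, and the part of density in these shares was not tested. Median spacing to the next member was 1570 kb.

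The largest group had 5 members over 84.4 kb between TBL1XR1, a subunit of a corepressor complex, and KCNMB2, a subunit of potassium channels, on chromosome 3. They held 11, 9, 8, 15 and 14 tags at folds of 6.53 to 15.13, and the last 2 lay in LINC00578, as did a sixth peak of 19 tags. On chromosome 5, 3 members over 33.9 kb between CARTPT and MAP1B held 11, 9 and 18 tags, and a pair between RANBP3L and SLC1A3, 9.96 kb apart, held 37 and 15. On chromosome 8, 3 members over 30.3 kb between HAS2, which makes the matrix sugar hyaluronan, and ZHX2 held 20, 20 and 9 tags.

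By desert, 379 held a member: 247 held 1, and 132 held 2 or more, 342 members in all. The 13 in the interval of chromosome 2 between LOC124905938 and LOC107985915 were the most. It spans the centromere, which was not the widest gene-free interval there, and its peaks held 8 to 17 tags. TBL1XR1 to KCNMB2 held 7, KLF4 to ACTL7B held 6 and OTOL1 to SI held 6 of 9 to 12 tags spread over 3475.0 kb. CDH10 to CDH9 and, on chromosome 8, MYC to GSDMC held 5 each. MYC drives proliferation, and the 5 peaks between it and GSDMC held 9 to 16 tags at folds of 9.39 to 12.57. On the other side of MYC, towards POU5F1B, lay a peak of 10 tags at a fold of 8.73.

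Counterparts of the members were looked for in replicate 2, which kept far fewer tags; the part of its depth in the result was not tested. A peak counted as matched when the offset between its summit and a summit in replicate 2 recurred in at least 2 other pairs nearby, since the numberings differ. This gave 22 of 621 members under 1 kb wide (3.54%, 2.35 to 5.31), all of them among the 589, against 210 of all 3867 such peaks (5.43%), 6.32% inside genes and 7.03% between genes near one. On chromosome 9 the matches at summits 102061788 (9 tags) and 108543681 (10 tags, between KLF4 and ACTL7B) had offsets of 4636134 and 4636142 bp. They lie between matches at 99499173 and 129278585, whose offsets were 2762302 and 2762267 bp. Whether the matches at the larger offset are false was not tested.

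Distal peaks held fewer tags, so the shares were also set side by side at like numbers of tags. With over 20 tags, 9 of 27 distal peaks had a match (33.3%, 18.6 to 52.2), against 29.6% (23.1 to 37.1) inside genes and 29.2% (21.6 to 38.2) near them. With 8 to 10 tags it was 8 of 427 (1.87%), against 1.55% and 1.47%, and these 8 include the chromosome 9 matches at the larger offset. With 11 to 15 tags it was 1 of 105 (0.952%, 0.168 to 5.2), against 5.87% (3.87 to 8.8) and 6.69% (4.16 to 10.6). With 16 to 20 tags it was 4 of 30 (13.3%), against 12.7% and 16.5%. The intervals overlap in each of these 4 classes of tags. The match is a count under 1 setting.

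The matched member with most tags was the one between CEBPB and PTPN1, with 52 tags in replicate 1 and 15 in replicate 2. The EDN1 peak had 33 and 5 tags and the SOX2 peak 31 and 5. A peak 148.335 kb from CDH18, a cadherin, had 25 and 4. The peak at the LOC105373768 promoter had 22 and 7, and a peak 100.324 kb from IER5L had 22 and 5. A peak 204.712 kb from RASEF had 21 and 7, and a peak in WAKMAR1, an lncRNA between GGTLC1 and SYNDIG1 studied in wound keratinocyte migration, had 20 and 6.

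The rest of the 12 matched members with most tags were the LINC02099 peak (27 and 5), a peak between PIK3R1 and SLC30A5 (24 and 6), the SFRP1 peak (19 and 6) and a peak between ACTBL2 and PLK2 (17 and 7). The peak of highest fold, near ANAPC1, had no match.

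Deserts without protein-coding genes still hold lncRNAs. The summits of 164 members (27.8%, 24.4 to 31.6) lay in an lncRNA span, while such spans cover 26.0% of the eligible sequence, so the share was near the background. Between genes within 100 kb of one it was 19.7% (17.4 to 22.1). No summit lay in a microRNA, an interval of up to 0.648%. A pseudogene held 6 summits (1.02%, 0.468 to 2.2), against 4.73% (3.62 to 6.17) between genes near one. The share of sequence in pseudogenes was not taken. When distance was measured from every annotated gene class and not only protein-coding genes, 124 peaks remained.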

How the data were processed

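Peaks were called by the authors per sample with MACS 1.4.2, IP against 1 control, with 1 tag kept per position, a tag size of 76 bp and a p cut-off of 1e-05, per the file headers; which input served as control is not given in the sources used here. FastQC, Trimmomatic and Bowtie are named in the submitters' processing notes, with hg19 as build. The deposited tags are counts of reads in a peak. The deposited score is 10 times the negative log10 of the p-value, the deposited fold is a ratio of IP over scaled control, and the deposited FDR is a percent, per the file headers. Peaks are the authors' own and their values were used to describe, rank and filter them.

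Replicate 1 kept 12687447 of 22139487 IP tags (42.7% removed as duplicates) against 28327222 control tags. Replicate 2 kept 868393 of 4089280 (78.8%) against 13175270. The numbering of replicate 1 is that of GRCh38, although the notes name hg19, and the positions of replicate 2 were not placed on genes or converted. Summits were placed among 19821 RefSeq GRCh38.p14 protein-coding gene spans, after 153 protein-coding rows that carry positions of other scaffolds were left out. Widest gene-free intervals were taken per chromosome. A desert's eligible sequence is what lies over 100 kb from its edges. Genes of both sides were looked up in 5 hand-written lists, all of whose genes were found. Summits were matched across replicates within 100 bp, with 2 supporting pairs over 2 kb and under 10 Mb away, offsets up to 5 Mb and widths under 1 kb, a method and setting chosen after the lists were seen.

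Shares have Wilson and counts and densities exact Poisson 95% intervals, which cover counting error only; no test was run, since peaks of 1 library are not replicates. Expected counts are each chromosome's members per Mb times the sequence in a class. Placement and matching were tested on simulated data. Python 3.11.15, numpy 2.4.6, pandas 2.3.3, scipy 1.17.1 and matplotlib 3.10.9 were used.

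Members and gene lists were chosen with earlier results of these data known. Members named were the 10 of highest fold under 1 kb wide, the 5 of most tags, matched members up to the 12 of most tags, the 3 of highest fold per gene list, the 8 deserts with most members, and 3 on each side of the threshold; others named were picked after their values were seen. The chromosome 21 split and the sequence pattern were also chosen after seeing the data. The input libraries were not used here, and sequences under other peaks were not used here.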

Additional observations from a re-analysis of the deposited data

How the results depend on the processing

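The median, density and share values are over all 633 members (633 peaks, 9 tags, fold 13.18, width 239 bp, 0.839 per Mb, 17.2% with a neighbour within 50 kb, 19.7% with a developmental flank, 22 matched). For the settings that moved a value the cause was not tested, beyond the fewer or more peaks each one keeps. Measuring from 50 kb gave 0.919 per Mb; from 200 kb, 381 peaks and 0.727 per Mb; from 500 kb, 154 peaks, a fold of 12.73 and 0.691 per Mb. Distance to every gene class gave 124 peaks, a fold of 12.59 and 1.0 per Mb. Keeping the widest intervals gave 1236 peaks with medians of 11 tags, fold 11.35 and width 255.5 bp, at 1.3 per Mb. A score of 100 or more left 50 peaks with 21 tags, fold 23.55 and width 310.0 bp, at 0.0663 per Mb, and a fold of 10 or more gave a median fold of 14.22 and 0.735 per Mb.

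Neighbours within 10, 100 and 200 kb gave 8.21%, 26.2% and 38.5%, and leaving out the chromosome 21 intervals, added after seeing the data, gave 13.8% within 50 kb. The developmental share was 12.0% with the nearest gene only and 24.8% with any gene within 1 Mb. Matches numbered 80 with 1 supporting pair and 12 in blocks of 5 Mb. The other 36 recomputed values moved by less than their error or by under 1.5 times. No paired analysis was possible because the members come from 1 replicate, which is also why none could be left out. Peaks with 8 tags, the fewest in the list, make up 34.8% of the members.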

Other observations

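A cell adhesion or axon guidance gene was the nearest on one side or the other of 71 of 589 members (12.1%, 9.67 to 14.9), the most of the 5 lists, against 2.04% (1.35 to 3.07) of intergenic peaks within 100 kb of genes. Of these genes 85 of 105 border a desert, and 40 (47.1%) flank a member, against 25.8% of all bordering genes. This list too was chosen with earlier results of these data known. Most of the peaks were weak. The one of highest fold held 18 tags (fold 24.75), 1198.53 kb from EPHA4, an ephrin receptor. Next was a peak of 10 tags (fold 23.36), 1283.128 kb from FLRT2, an adhesion protein of migrating cells. A peak of 10 tags (fold 20.76) lay 985.287 kb from PLXNA2, a semaphorin receptor. Its fold was shared by peaks that flank EPHA7 (9 tags) and NLGN4X (8 tags). The EPHA4, FLRT2 and PLXNA2 peaks lay nearer to SLC4A3 (577.526 kb), LOC124903401 (272.113 kb) and CAMK1G (354.043 kb). The part of desert length in this count was not tested.

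On chromosome 5 the cadherin genes CDH18, CDH12, CDH10, CDH9 and CDH6, which encode calcium-dependent adhesion proteins of mainly neural and kidney cells, follow each other across long deserts. The desert between CDH10 and CDH9 held peaks of 15, 11, 12, 12 and 12 tags at folds of 8.29 to 11.35, all below the median fold of 13.61. The desert before CDH6 held 4 peaks of 9 to 12 tags at folds of 9.39 to 11.35. The desert before CDH18 held 4, of which the one at 25 tags had a fold of 20.13 and a counterpart in replicate 2, while the other three had 9 to 12 tags.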
